A study of Mus musculus with 3 samples.

Results

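Peaks of the transcription factor Atoh7 were described at 9 other genes of the basic helix-loop-helix (bHLH) class that act in neurogenesis: Neurog2, Neurog1, Olig2, Neurod1, Neurod4, Neurod2, Neurod6, Bhlhe22 and Atoh1. A peak was counted for a gene when its midpoint lay within 100 kb of the gene body in the RefSeq annotation of the mm10 build. This rule took 14 of the 3668 peaks of the deposited list, and 7 of the 9 genes had at least 1. The libraries were CUT&RUN, in which an antibody brings a nuclease to a bound protein so that the DNA beside it is cut out and sequenced. They came from C57Bl6/J mouse retina at embryonic day 14, with 2 libraries labelled Atoh7 and 1 labelled IgG; no mutation or treatment is labelled. The list is a single set of positions and widths with no value per library. All its peak names start with Atoh7_R1, and whether it draws on 1 or both Atoh7 libraries is not described. Replicate spread, depth and the IgG level at these genes are therefore unknown, and nothing below is a comparison between samples.

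Proneural bHLH proteins pair with broadly expressed partners known as E proteins and bind short E-box sites of the form CANNTG, where N is any base. They push dividing progenitors towards a neuronal fate and often act in sequence, with early factors such as the neurogenins switching on later ones such as the NeuroD genes. In the retina, Neurog2 and Olig2 mark progenitors close to their last divisions. Neurod1 and Neurod4 act in photoreceptor, amacrine and bipolar cells, Neurod2, Neurod6 and Bhlhe22 in amacrine cells among others, and Atoh1, the closest relative of Atoh7, is best known from inner ear hair cells and cerebellar granule neurons.

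Bhlhe22 has no entry in the RefSeq promoter sequence table for GRCm38.p6, although 69 bp of its peak overlapped the gene body. Of the other 8 genes, Neurod1 is the one whose promoter in that table overlapped a peak. The stretch inside that peak is shown first, at chr2:79456667-79456886 on the minus strand. Next to it stand the 250 bases before the start site of Neurog2, chr3:127632886-127633135 on the plus strand, whose peak ended 31 bp short of them. For contrast, the third line gives the same 250 bases of Neurod2, chr11:98329646-98329895 on the minus strand, a gene with no peak within 100 kb. All run 5′ to 3′ along the gene, and capitals mark every CANNTG.
Neurod1: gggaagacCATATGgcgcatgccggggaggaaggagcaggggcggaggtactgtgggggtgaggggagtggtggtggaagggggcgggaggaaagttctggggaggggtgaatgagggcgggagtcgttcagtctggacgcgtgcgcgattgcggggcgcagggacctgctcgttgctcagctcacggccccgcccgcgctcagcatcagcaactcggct
Neurog2: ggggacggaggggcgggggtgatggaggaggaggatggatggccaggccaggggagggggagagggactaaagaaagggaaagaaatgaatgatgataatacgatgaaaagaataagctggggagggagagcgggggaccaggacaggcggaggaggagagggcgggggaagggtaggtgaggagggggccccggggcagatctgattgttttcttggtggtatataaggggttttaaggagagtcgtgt
Neurod2: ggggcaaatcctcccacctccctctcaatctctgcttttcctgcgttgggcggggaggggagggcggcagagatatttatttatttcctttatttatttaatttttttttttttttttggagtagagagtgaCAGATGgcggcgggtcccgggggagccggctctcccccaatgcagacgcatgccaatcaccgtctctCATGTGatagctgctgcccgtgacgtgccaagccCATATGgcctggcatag

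The Neurod1 stretch holds a single E-box, a CATATG that begins 242 bases before the start site. It covers 220 of the 534 bp of that peak. The rest of the peak and the other peaks were not read, so their E-boxes are unknown. The Neurog2 bases hold none, and the Neurod2 bases hold 3, the last of them a CATATG too, which begins 17 bases before the start site. That hexamer occurs in 3.91% of the 32851 promoter windows of the table, each of 300 bases, and any CANNTG in 72.3%. These are letter matches and say nothing of which protein sits there. Of the 9 windows of the 8 genes in that table, 5 hold a CANNTG and 1 overlapped a peak, against 3.63% of all windows of protein-coding genes. At least 3 CANNTG, as at Neurod2, occur in 17.6% of the windows of the table. The window of Atoh1, the other gene with no peak within 100 kb, holds none.

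Near peaks were common among the 9 genes. Within 5 kb of the gene body, 5 of 9 genes had a peak (55.6%, 95% Wilson interval 26.7 to 81.1%), against 10.7% of 21631 protein-coding genes. Within 100 kb, 7 of 9 did (77.8%, 45.3 to 93.7%), against 34.9%. Among protein-coding genes of similar length, from 1703 to 12103 bp, 7.17% had a peak within 5 kb and 36.7% within 100 kb. With other windows the counts were 3 of 9 within 1 kb, against 9.38% of protein-coding genes, 5 of 9 within 10 kb, against 12.4%, 7 of 9 within 50 kb, against 24.4%, and 8 of 9 within 200 kb, against 49.1%. As the nearest protein-coding gene to a peak, within 100 kb, 6 of 9 qualified, against 11.1%. The median distance from gene body to nearest peak was 1.99 kb over the 9 genes and 208 kb over all protein-coding genes. With only the wider 50% of peaks it was 84.9 kb over the 9 genes and 455 kb over all protein-coding genes. No test was made of these shares, since the genes were chosen with results of the same list known. The intervals cover counting of genes only. They treat genes as random draws, which these 9 are not, so they cannot be read as a test against the other shares. The same limit holds for the intervals of the other bHLH genes given below.

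**Figure D1:**
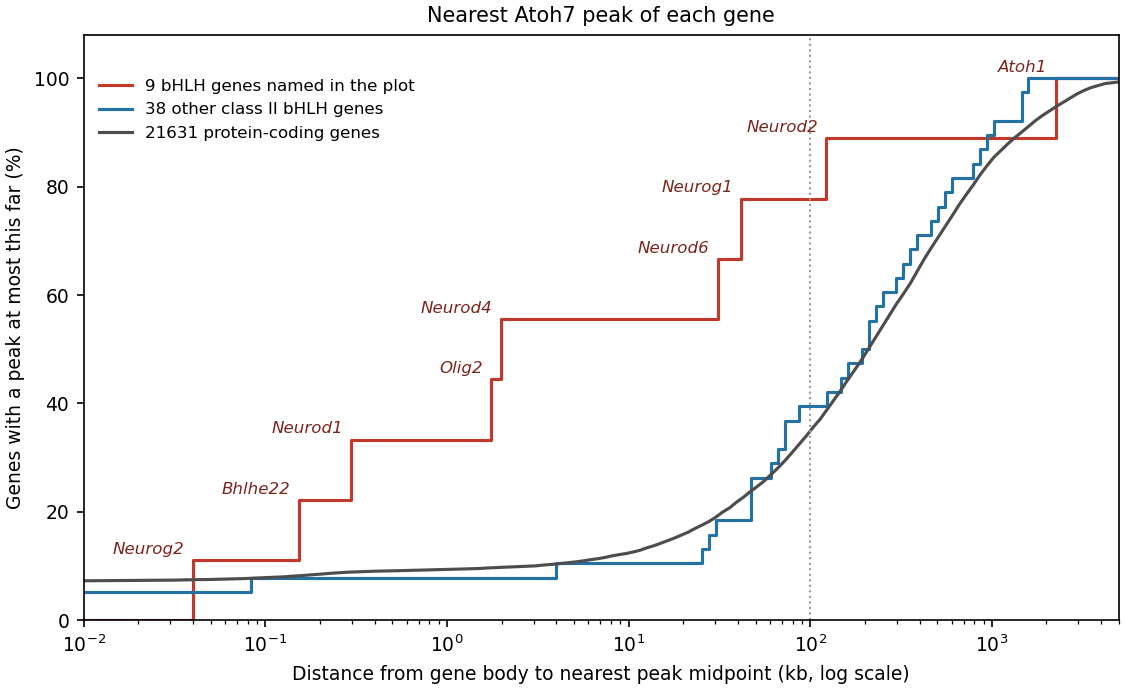
Share of genes (vertical axis, percent) with a peak midpoint at most a given distance from the gene body (horizontal axis, kb, log scale), for the 9 named bHLH genes, 38 other class II bHLH genes and 21631 protein-coding genes. The dotted line marks 100 kb; 5 of the 9 genes lie left of 2 kb, and Atoh1 lies at 2250 kb.

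Neurog2, a neurogenin that commits progenitors to neurons, had 1 peak, whose midpoint was the closest of the 14 to a gene body. The peak lay on chromosome 3 at 127632532 to 127632854, was 323 bp wide, and was centred 443 bp upstream of the start site at 127633136 (plus strand). It overlapped the first 122 bp of the annotated gene body (127632733 to 127635636), which begins 403 bp before that start site. A peak as near to the body was seen for 7.49% of protein-coding genes. The next peak lay 365 kb away, so the Neurog2 locus held nothing else inside the window.

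Neurog1, the other neurogenin, differed from Neurog2 in having no near peak. Its 1 peak was on chromosome 13 at 56208475 to 56208996, 522 bp wide, centred 41.7 kb beyond the far end of the gene (56250478 to 56252180, minus strand). The nearest protein-coding gene to that peak was Tifab, at 29.7 kb, and 22.4% of protein-coding genes had a peak at least as close as Neurog1 did.

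Olig2, a bHLH repressor gene of neurogenic progenitors in the retina and of motor neuron and oligodendrocyte precursors in the spinal cord, had 3 peaks, all upstream. A pair at 91223687 to 91223923 and 91222888 to 91223251 on chromosome 16, 237 and 364 bp wide, was centred 1.75 and 2.48 kb before the start site at 91225550 (plus strand). The pair was separated by 435 bp. The third peak, 91140422 to 91140842 (421 bp), was centred 84.9 kb upstream, overlapped the long noncoding RNA gene Gm41492 and lay nearer to the gene 4932438H23Rik (10.5 kb). It was the most distant peak inside the window for any of the genes. The pair also fell within 100 kb of Olig1, the neighbouring bHLH gene, 46.0 kb from its body, so those peaks are counted for both genes.

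**Figure D2:**
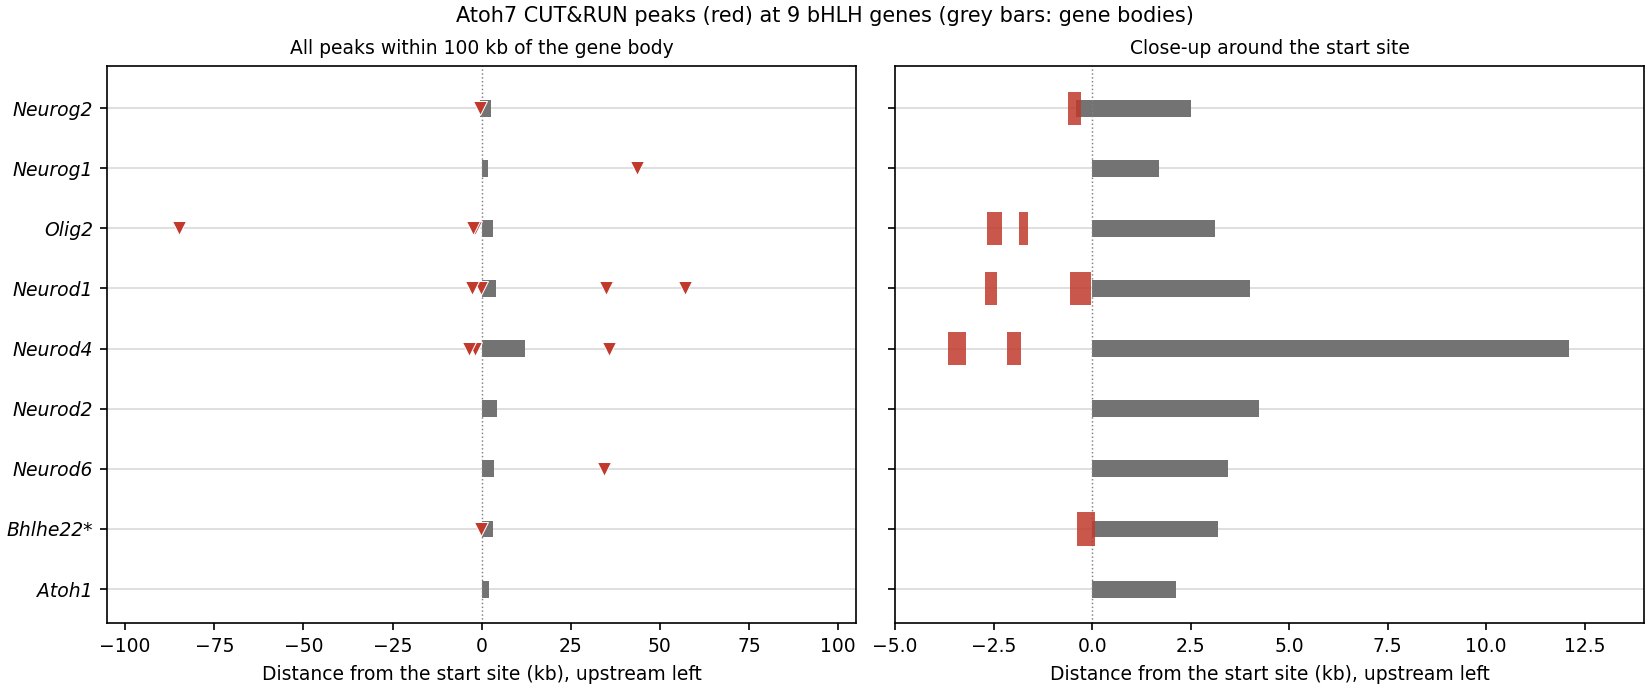
Peaks at the 9 genes by distance from the start site (horizontal axis, kb, upstream to the left); grey bars are gene bodies and red marks are peaks, as midpoints on the left and to scale on the right. Start sites come from the promoter table; for Bhlhe22 (asterisk), which has no entry there, 0 is the low-coordinate end and left is towards lower coordinates. The near peaks of Neurog2, Olig2, Neurod1 and Neurod4 sit upstream.

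Neurod1, which drives differentiation of photoreceptors and amacrine cells, had the most peaks, 4. The first (chromosome 2, 79456667 to 79457200, 534 bp) was centred 297.5 bp upstream of the start site at 79456636 (minus strand) and covered the CATATG shown above. The second (79459060 to 79459345, 286 bp) was centred 2.57 kb upstream. The other peaks lay on the far side of the gene, inside the body of Cerkl, a ceramide kinase-like gene in which human mutations cause retinal degeneration. They were centred 30.8 kb (79421688 to 79422080, 393 bp) and 53.1 kb (79399123 to 79399987) beyond the Neurod1 body. The more distant was 865 bp wide, wider than any other peak at the 9 genes and at least as wide as 98.3% of the whole list.

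Neurod4, also known as Math3, which acts with other bHLH genes in amacrine and bipolar cells, had 3 peaks and was the nearest protein-coding gene to each. A pair upstream on chromosome 10, at 130282060 to 130282420 (361 bp) and 130283459 to 130283909 (451 bp), was centred 1.99 and 3.43 kb from the gene (130268152 to 130280254, minus strand). The third, 130244281 to 130244627 (347 bp), was centred 23.7 kb beyond the other end. The table gives start sites at 130280254 and 130280138. A CAGCTG begins 4 bases after the second of these, outside any peak.

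Neurod6 and Neurod2, NeuroD genes best known from cortical projection neurons and found in amacrine subtypes of the retina, had no near peak. Neurod6 had 1, on chromosome 6 at 55646730 to 55646939, centred 31.0 kb beyond the end of the gene (55677818 to 55681263, minus strand) and overlapping the long noncoding RNA gene Gm34441. At 210 bp it was the narrowest of the 14 peaks, and 9.62% of the list was no wider. Neurod2 (chromosome 11, 98325415 to 98329645) had none, and its nearest peak was centred 123 kb away inside Cdk12, just outside the window. Its surroundings were the most crowded, with 8 other protein-coding genes within 100 kb, against none around Neurod6 and 1 to 3 around the others.

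Bhlhe22, also known as Bhlhb5, needed for subsets of amacrine and OFF-cone bipolar cells, had 1 peak, 443 bp wide, on chromosome 3 at 18053951 to 18054393. Its midpoint lay 153 bp outside the low-coordinate end of the gene (18054325 to 18057514), and 69 bp of it overlapped the gene body. As near a peak was seen for 8.22% of protein-coding genes. A further peak inside Cyp7b1 fell outside the window, at 149 kb.

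Atoh1 (chromosome 6, 64729125 to 64731245) stood apart, with no peak within 1 Mb. The nearest peaks were 2.25 Mb away towards lower coordinates and 2.31 Mb away towards higher ones, the second of them 144.5 bp from Gadd45a. Of all protein-coding genes, 94.7% had a peak at least as near.

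Loci differed in how their peaks were laid out. Olig2, Neurod1 and Neurod4 each had a pair of peaks within 5 kb and a further 1 or 2 farther out, and together held 10 of the 14 peaks. At least 2 peaks within 5 kb was a feature of 3 of 9 genes, against 1.76% of protein-coding genes and 0.591% of those of similar length; at least 3 within 100 kb was a feature of the same genes, against 4.84%. In these pairs the midpoints were 0.736 kb apart at Olig2, 1.44 kb at Neurod4 and 2.27 kb at Neurod1. In the whole list 11.4% of 3662 peaks on chromosomes 1 to 19 and X had another peak within 5 kb, against 6 of the 14 here. Those 6 are the same pairs at the same 3 genes, so this share restates the count above. Neurog2 and Bhlhe22 had a single peak at the gene end, Neurog1 and Neurod6 a single distant one, and Neurod2 and Atoh1 none.

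Midpoints of near peaks lay outside the gene, and upstream where the strand was known. None of the 14 midpoints lay inside the body of the gene it was counted for. Of the 8 peaks within 5 kb, 7 belonged to genes with a start site in the table, and 7 of 7 lay upstream. Among all protein-coding genes the share of such pairs of gene and peak with an upstream midpoint was 22%, with 68.2% inside the body. Among genes of similar length it was 45.9%, with 32% inside. Where the midpoint lay outside the body, most pairs were upstream in both sets. Over all protein-coding genes 509 were upstream and 228 downstream, and over those of similar length 198 and 95. From 5 to 100 kb, 1 of 6 peaks was upstream (that of Olig2) and 5 of 6 were downstream, against 51.6% downstream over 7360 such pairs of all protein-coding genes. These 6 peaks are few and lie at 5 genes. Peaks at the same gene share a locus and are not independent, so the 7 near peaks are 4 loci.

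The 14 peaks had a median width of 378 bp, from 210 to 865 bp, against 381 bp in the whole list, which ran from 177 to 3023 bp, and 7 of 14 reached the list's median. The 8 peaks within 5 kb had a median of 362 bp and the 6 farther ones 407 bp, with overlapping ranges of 237 to 534 bp and 210 to 865 bp. Width is no measure of occupancy, and the list carries no peak height.

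**Figure D3:**
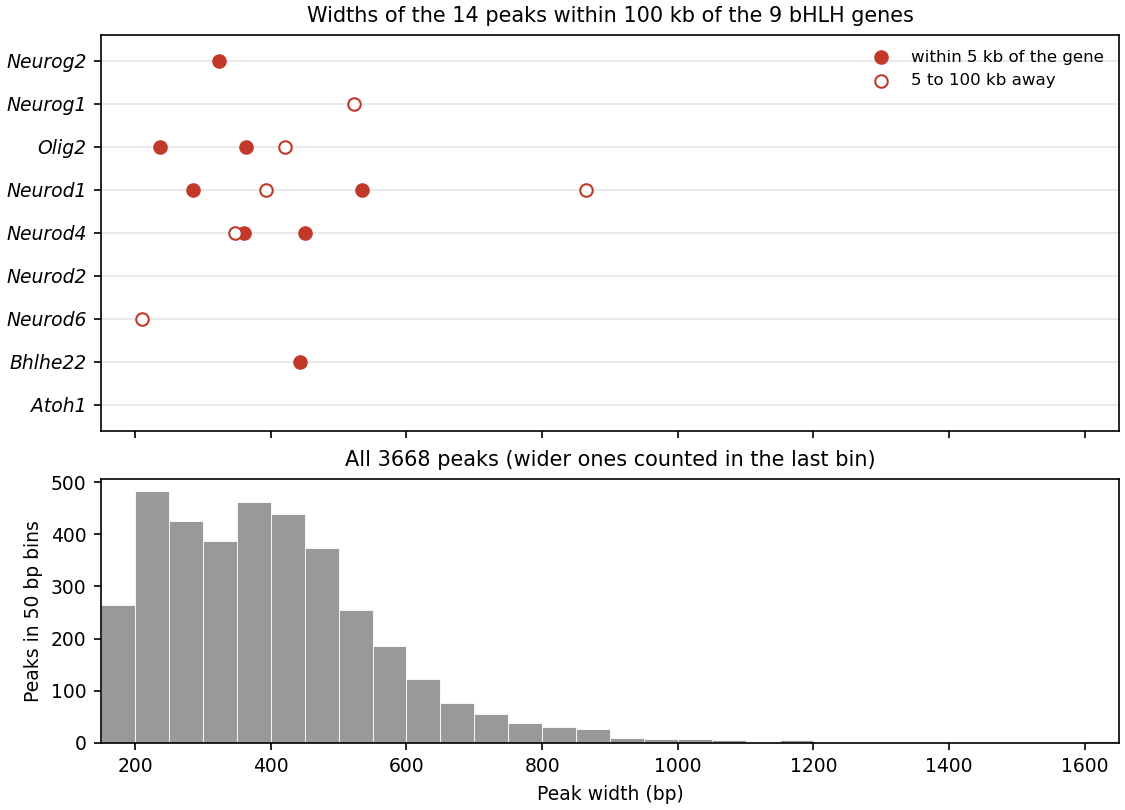
Upper plot: width in bp (horizontal axis) of each of the 14 peaks by gene, filled within 5 kb and open from 5 to 100 kb. Lower plot: number of peaks of the whole list in 50 bp bins of width. The peaks at the 9 genes spread over the bulk of the list, with the Neurod1 peak of 865 bp to the right.

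Other bHLH genes of the tissue-restricted class (class II, 38 genes outside these 9) were set beside them. Within 5 kb 4 of 38 had a peak (10.5%, 95% Wilson interval 4.17 to 24.1%), and within 100 kb 15 of 38 did (39.5%, 25.6 to 55.3%), close to the shares of all protein-coding genes. Those with a peak within 5 kb were Atoh7 itself, Atoh8, Nhlh1 and Nhlh2, the last pair being neuronal bHLH genes expressed as neurons leave the cycle. Atoh7 had 5 peaks within 100 kb, 2 of them within 5 kb, and was the only one of the 38 with more than 1 that close. Nhlh1 had 3, the nearest at 3.79 kb, while Nhlh2 and Atoh8 had a single peak inside the gene.

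Farther peaks of that group lay at Olig3 (46.2 kb, 1 peak), Hand2 (27.3 kb, 2 peaks), Bhlha9 (25.3 kb, 3 peaks), Myog (28.5 kb, 2 peaks), Lyl1 (45.3 kb, 2 peaks), Tcf23 (60.3 kb), Bhlhe23 (64.1 kb), Ascl5 (67.7 kb), Tal1 (69.4 kb) and Neurog3 (82.3 kb), and Olig1 was counted only through the Olig2 pair. For 9 of the 15 genes no peak had that gene as its nearest protein-coding gene. Ptf1a, which directs amacrine and horizontal cell fate, had its nearest peak 549 kb away. Of the muscle-determining genes, Myog had the 2 peaks given above, neither of which had Myog as its nearest protein-coding gene. Myod1, Myf5 and Myf6 had none within 100 kb, the nearest lying 460, 142 and 152 kb away.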

How the data were processed

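The deposited table lists peak start, end and width in bp on mm10, per the file headers and the submitters' processing notes, which name MACS2 2.2.7.1, Bowtie2 2.3.5 and Picard 2.0.1, besides bedtools and SAMtools, without settings. Widths equal end minus start plus 1. The filter that left 3668 of 7185 numbered peaks is one the sources used here do not describe, and all names of peaks start with Atoh7_R1. Gene bodies came from the RefSeq table of GRCm38.p6, the assembly mm10 names, and start sites, strands and bases from the RefSeq promoter table (250 bases before to 50 after each start, 8 of 9 genes matched). Distances run from peak midpoint to gene body, 0 inside. For a peak inside several genes, the first in the table counted as nearest. All 9 genes were named, with every peak, and neighbours where nearer. Of the 38 other bHLH genes, those with a peak within 100 kb were named. Most of the rest are counted but not reported singly. The genes, lists and windows were chosen with earlier results of these data known. No chance test was run; the distance functions were tested on simulated peaks. Alternatives were other windows, peak edges, nearest genes only, wider peaks and gene ends, with start sites added after the data were seen. Distances and counts were computed with pandas 2.3.3 and numpy 2.4.6 in Python 3.11.15, intervals with scipy 1.17.1 and plots with matplotlib 3.10.9.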

Additional observations from a re-analysis of the deposited data

How the results depend on the processing

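The number of the 9 genes with a peak was 7 with a window of 50 kb, 5 with 10 kb and 8 with 200 kb, 6 when a peak counted only for its nearest protein-coding gene, and 5 with the wider 50% of peaks. The number of peaks was 8 with 10 kb and 7 with the wider 50% of peaks. The other bHLH genes with a peak numbered 4 with 10 kb, 6 by nearest gene and 8 with the wider 50% of peaks, where the shares of all protein-coding genes were 12.4%, 11.1% and 19.98%. The median nearest distance of the 9 genes, 1986 bp, was 1806 bp from the nearest edge of the peak and 84918 bp with the wider 50% of peaks, a setting that removes the Neurog2 peak, the Neurod6 peak and the Olig2 pair, among others. Measured from start sites, which 8 of the 9 genes have, 6 had a peak within 100 kb. Of 22 alternative values in all, 16 were within 1.5 times the main value. No paired analysis was possible because the list has no value per library, and for the same reason no replicate could be left out.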

Other observations

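The numbers in the peak names rise along the genome, and 3517 of 7185 are absent from the list, so absent numbers can be placed between listed neighbours. Between the peaks that flank Atoh1, 4.56 Mb apart, 4 numbers are absent. Between those flanking Neurod2 and Neurog1, 1 is absent each, and 3 are absent between the Olig2 pair and the next peak on the gene's far side. No number is absent between the peaks that flank Neurog2, Neurod1, Neurod4, Neurod6 and Bhlhe22, nor among the peaks counted for Neurod1, Neurod4 and Olig2. Where in each interval an absent number lay, and why it was left out, is not described in the labels or the table.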
